A study of Mus musculus with 18 samples.

Results

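*Clic5*, *Dynlt1b*, *Tmem179*, *Ppp6r1*, *Tob1* and *Rgs4* are 6 protein-coding genes of the 40800 Ensembl genes counted in mouse lens. They were chosen because their levels in lenses heterozygous for the R49C mutation of αA-crystallin lay apart from wild-type (WT) lenses, so that difference is described here and not tested. All 6 were matched by symbol, and all 6 were among the 13938 genes that passed the filter on low counts. The RNA came from whole lenses of mice on a C57BL/6J background, with several lenses combined in each library. The *Cryaa* line was sampled at the age of 2 days and comprised wild type (*Cryaa*-WT), heterozygotes with 1 R49C allele (*Cryaa*-R49C-het) and homozygotes with 2 (*Cryaa*-R49C-homo). The *Cryab* line, with the R120G mutation of αB-crystallin, was sampled at 14 days in the same arrangement (*Cryab*-WT, *Cryab*-R120G-het, *Cryab*-R120G-homo). WT lenses of both lines carried neither knock-in allele. Each group had 3 libraries, 18 in all, and p-values measure the spread between such pooled libraries. Both mutations were placed in the mouse's own gene, so a het lens keeps 1 normal copy and a homo lens has none. Line and age changed together and cannot be told apart. The *Cryab* mutants were assigned from their titles, since their genotype field named the other line.

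The lens is a closed sack of epithelial cells and elongated fibre cells. Fibre cells fill with crystallins, build a specialised membrane skeleton of actin and its linkers, and lose their nuclei and organelles as they mature, after which no new RNA is made. The 6 genes belong to different processes. *Clic5* encodes a chloride intracellular channel protein that joins ezrin and radixin at the membrane and anchors actin, as in hair cell stereocilia and podocytes. *Dynlt1b* encodes a light chain of cytoplasmic dynein, the motor that carries cargo towards the minus ends of microtubules. *Tmem179* encodes a predicted membrane protein. *Ppp6r1* encodes a regulatory subunit of protein phosphatase 6. *Tob1* encodes an antiproliferative protein of the BTG/TOB family that brings the CCR4-NOT deadenylase to messenger RNAs. *Rgs4* encodes a GTPase-activating protein that shortens signalling through Gαq and Gαi.

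Some sequences bear on how the values can be read. The first set is the start of the coding sequence of *Dynlt1b* and of its nearest copies, shown because a read that falls on an identical stretch cannot be assigned to 1 gene. *Dynlt1b* lies on chromosome 17 (GRCm38, GENCODE vM21, chr17:6430112-6436296, plus strand). *Dynlt1a*, *Dynlt1c* and *Dynlt1f* lie within 210.3 kb of it, at chr17:6306340-6317500, chr17:6601671-6609774 and chr17:6646602-6655900. Each of the 4 has a coding sequence of 339 bases, or 113 codons without the stop, and bases 1 to 60 read as follows, with the 1 base that differs in capitals.
Dynlt1b: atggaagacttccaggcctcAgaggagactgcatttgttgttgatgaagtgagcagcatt
Dynlt1a: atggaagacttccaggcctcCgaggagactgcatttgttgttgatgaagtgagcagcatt
Dynlt1c: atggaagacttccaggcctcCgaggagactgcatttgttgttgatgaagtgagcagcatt
Dynlt1f: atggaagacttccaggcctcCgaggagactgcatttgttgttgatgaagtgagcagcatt
The substitution, A21C counted from the first coding base, was the only difference over all 339 bases between *Dynlt1b* and each of the other 3, an identity of 99.7%. Reads were 50 bases long, and 601 of the 722 windows of 50 bases in *Dynlt1b* transcripts (83.2%) also occurred in a transcript of another gene, 551 of them in *Dynlt1a*. Only 121 windows belonged to *Dynlt1b* alone. Reads that aligned to more than 1 place were not counted, so the count of *Dynlt1b* rests on a small part of its transcript. For the other genes such windows were few: 6.35% in *Ppp6r1*, 1.47% in *Tmem179*, 0.29% in *Rgs4*, 0.14% in *Clic5* and 0 of 2239 in *Tob1*.

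The second set is 4 promoters, shown because *Ppp6r1* and *Tob1* had similar profiles over the libraries, with *Clic5* and *Rgs4* as the pair of next highest correlation after TMM scaling. Of the 6 genes, 5 matched the promoter table; the RefSeq start of *Tmem179* lies 5.59 kb from its GENCODE start, so its window was searched but is not printed. The starts were the same in both annotations for *Tob1* and *Rgs4*, and lay 12 bases apart for *Clic5* and 69 bases apart for *Ppp6r1*. Each is the 250 bases before the RefSeq start on GRCm38.p6, written in the direction of the gene, and capitals mark matches to the motifs named after them. *Clic5* was read from chr17:44188322-44188571 (plus strand), *Rgs4* from chr1:169747643-169747892 (minus), *Ppp6r1* from chr7:4658951-4659200 (minus) and *Tob1* from chr11:94211204-94211453 (plus).
Clic5: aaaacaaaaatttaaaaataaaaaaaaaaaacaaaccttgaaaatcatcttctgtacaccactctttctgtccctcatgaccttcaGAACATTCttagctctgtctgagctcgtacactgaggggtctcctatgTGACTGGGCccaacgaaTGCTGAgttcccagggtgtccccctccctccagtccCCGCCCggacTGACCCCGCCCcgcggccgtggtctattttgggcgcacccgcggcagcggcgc
Rgs4: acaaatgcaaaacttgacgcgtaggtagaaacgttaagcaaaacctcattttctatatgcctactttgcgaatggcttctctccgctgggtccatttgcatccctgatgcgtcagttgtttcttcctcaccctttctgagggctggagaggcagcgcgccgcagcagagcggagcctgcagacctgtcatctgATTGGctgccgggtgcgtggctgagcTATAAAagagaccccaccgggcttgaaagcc
Ppp6r1: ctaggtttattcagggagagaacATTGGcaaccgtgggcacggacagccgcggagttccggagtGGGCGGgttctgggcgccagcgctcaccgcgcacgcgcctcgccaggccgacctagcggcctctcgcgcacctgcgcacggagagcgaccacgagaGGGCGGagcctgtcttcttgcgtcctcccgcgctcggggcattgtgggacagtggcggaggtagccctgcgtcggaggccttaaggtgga
Tob1: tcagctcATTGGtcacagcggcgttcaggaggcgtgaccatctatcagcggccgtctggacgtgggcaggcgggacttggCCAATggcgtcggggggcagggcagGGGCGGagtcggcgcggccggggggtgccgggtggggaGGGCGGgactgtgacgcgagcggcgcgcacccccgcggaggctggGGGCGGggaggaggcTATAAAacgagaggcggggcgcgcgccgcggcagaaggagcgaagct
Letters were searched on both strands. The promoters of *Tob1* and *Rgs4* held the TATA box TATAAA, as did 12.4% of the 32851 mouse promoters searched, and those of *Tob1*, *Rgs4* and *Ppp6r1* held CCAAT, as did 33.8%. The GC box GGGCGG was found in *Tob1*, *Ppp6r1* and *Clic5* and in 32.7% of all promoters. *Clic5* held the heat shock element core GAANNTTC (6.69% of all promoters), the antioxidant element core TGACNNNGC (10.2%), which in its second place overlaps a GC box, and the letters TGCTGA of the MAF element (16.1%), and the other 3 printed windows held none of these. The window of *Tmem179* held CCAAT and the antioxidant core. GC content was 73.6% in *Tob1*, 68.4% in *Ppp6r1*, 53.6% in *Rgs4* and 52.8% in *Clic5*, against a median of 52.4%. These matches describe the letters of the windows only.

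The libraries held 14272174 to 29639719 counts. Marker lists showed lens material in every group: 11 of 12 fibre markers and all 5 epithelial markers had counts, and *Lim2*, a fibre membrane gene, was listed at 0 in every library. The summed fibre markers had a level of 141071 to 210628 CPM (counts scaled to a common library size) in *Cryaa*-WT, 156647 to 237863 in *Cryaa*-R49C-het and 63844 to 170580 in *Cryaa*-R49C-homo lenses. The mutated gene *Cryaa* was itself the leading gene of this sum in every group. Alone it was at 69970 to 103292 CPM in *Cryaa*-WT, 77157 to 118005 in *Cryaa*-R49C-het and 31385 to 92956 in *Cryaa*-R49C-homo. All 10 retina markers had counts in each group, and their sum was 17.8 to 70.4 CPM in the *Cryaa* line and 22.4 to 1211 CPM in the *Cryab* line. By library totals the sums were 21.4 to 143 and 12.2 to 936 CPM. The summed macrophage markers were at 7.43 to 17.8 CPM in *Cryaa*-WT, 9.53 to 15.3 in *Cryaa*-R49C-het and 18.9 to 35.8 CPM in *Cryaa*-R49C-homo. The summed markers of pigment and ciliary epithelium were at 18.4 to 35.1, 18.1 to 21.3 and 8.90 to 15.0 CPM in the same groups, and at 6.17 to 7.64 CPM in *Cryab*-WT, 17.2 to 51.7 in *Cryab*-R120G-het and 15.3 to 27.0 in *Cryab*-R120G-homo. The summed erythroid markers were at 36.7 to 57.8 CPM in *Cryaa*-WT, 47.1 to 103 in *Cryaa*-R49C-het and 41.3 to 149 in *Cryaa*-R49C-homo, and at 15.5 to 146 CPM in *Cryab*-WT, 134 to 449.8 in *Cryab*-R120G-het and 49.2 to 178 in *Cryab*-R120G-homo. The part of these other cells in the results was not tested. The mutated genes themselves did not pass the test in their own lines, with *Cryaa* at a log2 fold change of 0.03 (SE 0.32) in het and -0.76 (SE 0.33) in homo lenses of its line, and *Cryab* at -0.20 (SE 0.26) and -0.32 (SE 0.26) in its own (edgeR FDR 0.15 or above). The *Cryaa* value in its homo lenses was -1.39 (SE 0.28, FDR 0.00073) and passed without *Cryaa*-R49C-homo replicate 1, and was -0.48 (SE 0.33) without replicate 3. With 1 replicate left out, *Cryaa* in its het lenses lay between -0.17 and 0.15. *Cryab* in its het lenses lay between -0.34 and -0.045, and neither passed. A point mutation need not alter the count of its gene, so these values do not check the labels. The gene model *Gm42418* on chromosome 17 took 20.01% to 30.1% of the counts in *Cryaa*-WT, 11.9% to 17.97% in *Cryaa*-R49C-het, and 2.53%, 24.5% and 42.6% in the 3 *Cryaa*-R49C-homo libraries. The WT and het ranges did not overlap, and *Cryaa*-R49C-homo replicate 1, with 2.53%, had the lowest share of the 18 libraries. In the *Cryab* line the share was 13.7% to 21.4% in WT, 10.04% to 19.4% in het and 7.97% to 23.2% in homo lenses. Levels are CPM after TMM scaling unless said otherwise. TMM factors were 1.203 to 2.002 in *Cryaa*-WT and 0.488 to 0.545 in *Cryab*-WT, so any difference between the lines depends on them, and CPM by library totals alone is given beside such differences as an alternative chosen after seeing the data.

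**Figure D1:**
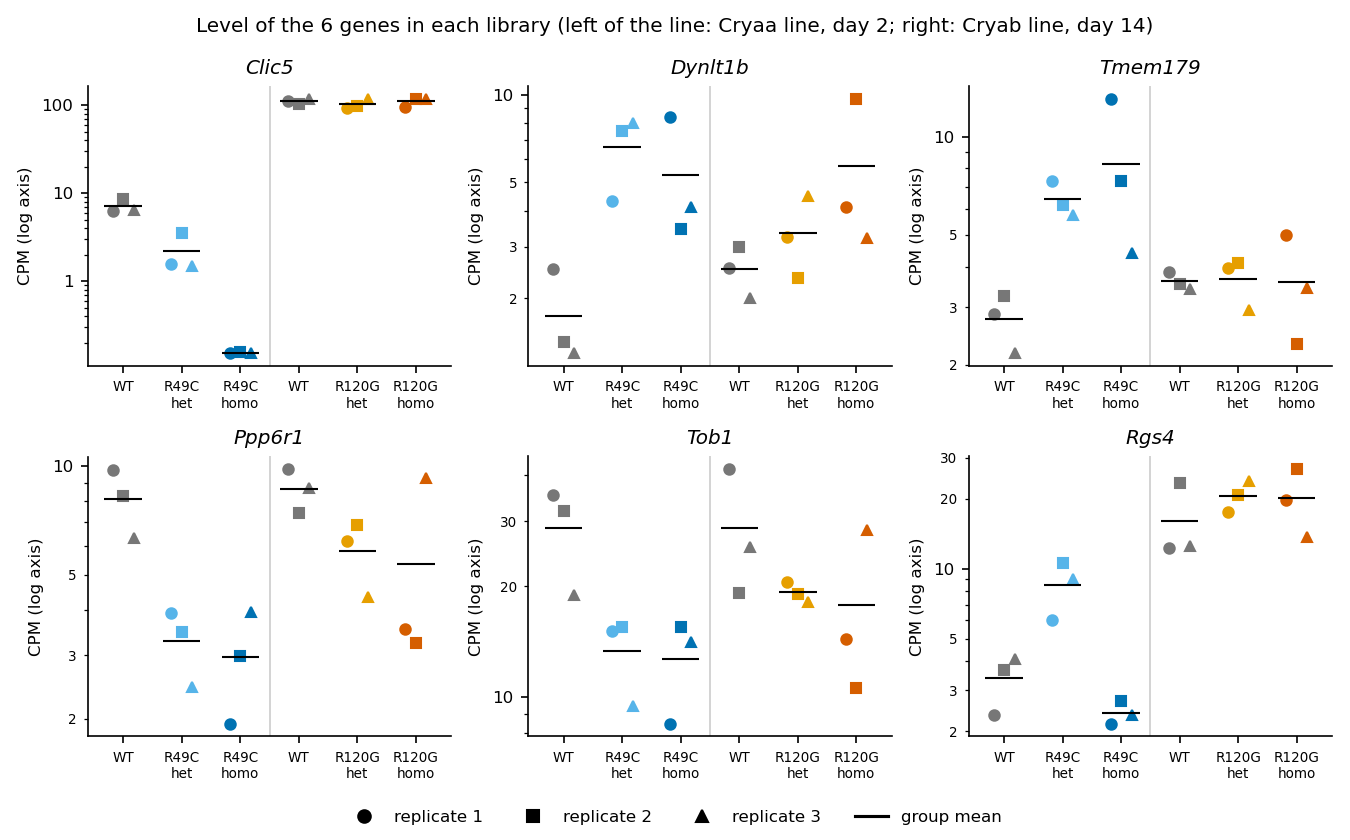
CPM of each gene (log axis) in the 18 libraries, grouped by genotype, with the *Cryaa* line (day 2) left of the grey line and the *Cryab* line (day 14) right of it. Symbols mark the replicate and bars the group mean. The *Cryaa*-R49C-het libraries lie apart from *Cryaa*-WT in all 6 panels, which is how the genes were chosen, and *Clic5* lies near 110 CPM throughout the *Cryab* line on this TMM scale.

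*Clic5* was the gene with the widest range of levels. It lies at chr17:44188584-44280172 on the plus strand, 12.5 Mb from *Cryaa*. Its level was 6.22, 8.68 and 6.48 CPM in the *Cryaa*-WT libraries, 1.58, 3.51 and 1.5 CPM in *Cryaa*-R49C-het, and 0.15, 0.16 and 0.15 CPM in *Cryaa*-R49C-homo. The 3 groups were stacked without overlap, and the homo libraries held only 7, 5 and 4 reads of the gene against 146 to 257 in WT. The group means were 7.13 ± 1.35, 2.20 ± 1.14 and 0.15 ± 0.0025 CPM (SD, n = 3 each), which put het 3.25-fold and homo 46.1-fold below WT. The fitted log2 fold changes were -1.71 (SE 0.27) for het and -5.48 (SE 0.36) for homo, and both use the same WT libraries. Homo was 14.2-fold below het. In RNA from whole lenses, fewer cells of a type and less RNA per cell cannot be told apart.

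*Clic5* in the *Cryab* line was at 110, 103 and 117 CPM in WT, 92.6, 98.8 and 118 CPM in het, and 95.3, 118 and 117 CPM in homo lenses. The 3 groups overlapped throughout. Neither contrast passed the test, at a log2 fold change of -0.10 (SE 0.24) in het and -0.00071 (SE 0.24) in homo (FDR 1.0 in both, 0.534 to 1.0 over the alternatives). The approximate 95% interval, from the SE and a normal distribution and so somewhat too narrow, was 0.67- to 1.30-fold in het and 0.72- to 1.39-fold in homo. WT lenses of the *Cryab* line at day 14 held 15.5 times as much *Clic5* as WT lenses of the *Cryaa* line at day 2, with no overlap. By library totals the ratio was 5.32, with levels of 8.21 to 12.96 CPM at day 2 and 54.9 to 57.1 CPM at day 14. From high to low on the TMM scale, the *Cryab* groups came first and overlapped each other, and *Cryaa*-WT, then its het and then its homo lenses followed with a gap at each step. The fibre marker sum, of which *Cryaa* was the leading gene, was 515700 to 702202 CPM in the *Cryab* line against 63844 to 237863 in the *Cryaa* line. By library totals the lines overlapped, at 316877 to 423059 and 109297 to 386092 CPM. The part of this sum in the *Clic5* levels was not tested.

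*Dynlt1b* had the largest upward difference of the 6 in *Cryaa*-R49C-het. Its *Cryaa*-WT libraries were at 2.51, 1.42 and 1.30 CPM, its *Cryaa*-R49C-het libraries at 4.30, 7.52 and 8.0 CPM, and its *Cryaa*-R49C-homo libraries at 8.37, 3.46 and 4.11 CPM. Every het and homo library was above every WT library, while het and homo overlapped. The means were 1.74 ± 0.67, 6.61 ± 2.01 and 5.31 ± 2.67 CPM (SD, n = 3 each), or 3.79-fold and 3.05-fold above WT. The log2 fold changes were 1.93 (SE 0.41) and 1.62 (SE 0.41), and without *Cryaa*-R49C-homo replicate 1 the homo value was 1.13 (SE 0.41).

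The other copies carried few reads. *Dynlt1f* had 6 to 39 counts in a library, *Dynlt1a* 1 to 27 and *Dynlt1c* 0 to 15, against 23 to 380 for *Dynlt1b*. *Dynlt1a* had means of 0.22 ± 0.047 CPM in *Cryaa*-WT, 0.46 ± 0.19 in het and 0.35 ± 0.079 in homo (SD, n = 3), while *Dynlt1f* was at 0.81 ± 0.23, 0.94 ± 0.26 and 0.85 ± 0.21 CPM. None of the 3 copies passed the test in any of the 4 comparisons (FDR 0.52 or above). *Dynlt1a* had a log2 fold change of 1.04 (SE 0.56) in *Cryaa*-R49C-het and 1.31 (SE 0.69) in *Cryab*-R120G-homo, the same sign as *Dynlt1b* in both. *Dynlt1c*, at 0.36 ± 0.17 CPM in *Cryaa*-WT, 0.18 ± 0.044 in het and 0.33 ± 0.11 in homo (SD, n = 3), had the opposite sign in *Cryaa*-R49C-het, at -0.91 (SE 0.71).

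**Figure D2:**
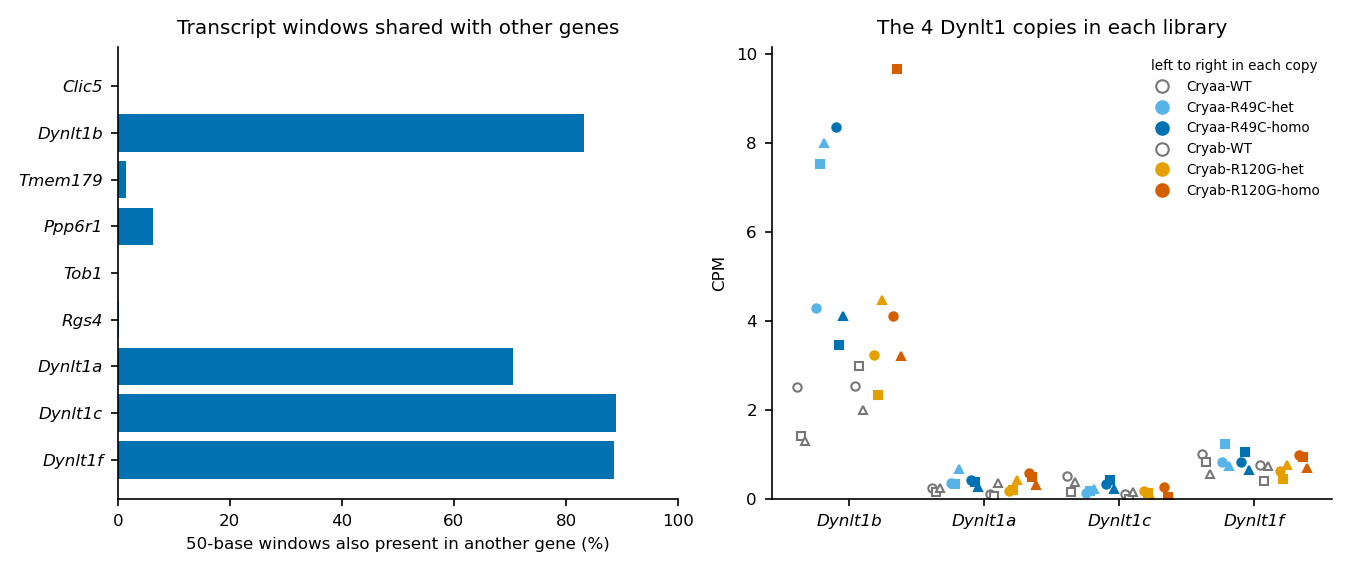
Left, the share of 50-base transcript windows (%) that also occur in another gene, for the 6 genes and the 3 *Dynlt1* copies. Right, CPM of the 4 *Dynlt1* copies in the 18 libraries, with the 6 groups side by side within each copy and symbols marking the replicate as circle, square and triangle; *Dynlt1b* lies above the other 3 in every library although 83.2% of its windows are shared.

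*Dynlt1b* in the *Cryab* line was at 2.53, 3.00 and 2.00 CPM in WT, 3.25, 2.35 and 4.48 CPM in het, and 4.13, 9.68 and 3.21 CPM in homo lenses. The homo libraries lay above the WT libraries, as did those of 4.51% of all genes tested, and het overlapped both. The log2 fold change was 0.41 (SE 0.44, FDR 1.0) in het and 1.18 (SE 0.43, FDR 0.65) in homo, a mean 2.26-fold above WT, and neither passed. The het value was 0.14 (SE 0.50) without *Cryab*-R120G-het replicate 3, the library at 4.48 CPM, 0.27 without *Cryab*-WT replicate 3 and 0.62 without het replicate 2. The homo FDR ran from 0.025 to 1.0 over the alternatives. It passed only in the fit to all 26547 genes with a count, where *Dynlt1b* had a log2 fold change of 1.18 (SE 0.32, FDR 0.025) and 1.14% of genes were called. With the replicate number as a block over the 9 libraries of this line, the FDR was 0.26. Without *Cryab*-R120G-homo replicate 2, the library at 9.68 CPM, the log2 fold change was 0.55 (SE 0.42).

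On the chromosome, *Dynlt1b* is followed 2.23 kb away by the pseudogene *Tmem181b-ps*, its nearest tested neighbour. *Tmem181b-ps* rose in *Cryaa*-R49C-homo, at a log2 fold change of 2.47 (SE 0.46, FDR 0.0010), and was at 1.27 (SE 0.46, FDR 0.84) in het. In the *Cryab* line it was at -0.19 (SE 0.59) in het and -0.11 (SE 0.57) in homo (FDR 1.0). *Dynlt1b* lies 25.2 Mb from *Cryaa*, and the nearest tested neighbours of *Clic5*, *Enpp4* and *Runx2*, did not pass in any comparison (FDR 0.53 or above).

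*Tmem179* lies on the minus strand at chr12:112500189-112516747. It was at 2.85, 3.24 and 2.17 CPM in *Cryaa*-WT, at 7.33, 6.17 and 5.76 CPM in *Cryaa*-R49C-het and at 13.1, 7.29 and 4.41 CPM in *Cryaa*-R49C-homo lenses. Both mutant groups lay wholly above WT, and homo spread on both sides of het. The means of 2.76 ± 0.54, 6.42 ± 0.81 and 8.25 ± 4.40 CPM (SD, n = 3 each) were 2.33-fold above WT in het and 2.99-fold in homo. The log2 fold changes were 1.22 (SE 0.32) and 1.59 (SE 0.32), and the homo value was 1.09 (SE 0.28) without replicate 1, the library at 13.1 CPM.

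*Tmem179* in the *Cryab* line was at 3.86, 3.54 and 3.41 CPM in WT, 3.97, 4.11 and 2.94 CPM in het, and 4.98, 2.31 and 3.44 CPM in homo. The groups overlapped, and the log2 fold changes of 0.03 (SE 0.34) and -0.01 (SE 0.34) did not pass (FDR 1.0 in both, 0.64 to 1.0 over the alternatives). The approximate 95% intervals were 0.64- to 1.62-fold in het and 0.63- to 1.57-fold in homo. Of its neighbours, *Inf2*, which encodes a formin that acts on actin, rose in *Cryaa*-R49C-homo to a log2 fold change of 1.46 (SE 0.43, FDR 0.035; called in 8 of 14 alternatives, FDR up to 0.15) and was at 0.05 (SE 0.44) in het, while *Kif26a* did not pass (FDR 0.46 or above).

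*Ppp6r1* lies at chr7:4631495-4659019 on the minus strand. Its levels were 9.76, 8.27 and 6.31 CPM in *Cryaa*-WT, 3.92, 3.48 and 2.44 CPM in *Cryaa*-R49C-het and 1.94, 2.99 and 3.95 CPM in *Cryaa*-R49C-homo lenses. Both mutant groups lay below WT and overlapped each other. The means were 8.11 ± 1.73, 3.28 ± 0.76 and 2.96 ± 1.01 CPM (SD, n = 3 each), or 2.47-fold and 2.74-fold below WT, with log2 fold changes of -1.30 (SE 0.33) and -1.46 (SE 0.34).

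*Ppp6r1* in the *Cryab* line was at 9.80, 7.41 and 8.68 CPM in WT, 6.22, 6.85 and 4.34 CPM in het, and 3.54, 3.25 and 9.25 CPM in homo. The het libraries lay below WT, as did those of 5.47% of all genes, and 1 homo library lay among the WT libraries. Neither contrast passed: the log2 fold change was -0.57 (SE 0.34, FDR 1.0) in het and -0.70 (SE 0.34, FDR 0.81) in homo, and the homo FDR ran from 0.063 to 1.0 over the alternatives. Without *Cryab*-R120G-homo replicate 3, the library at 9.25 CPM, the homo value was -1.34 (SE 0.32, FDR 0.13), and without homo replicate 2 it was -0.44 (SE 0.36). *Tmem86b*, which lies 0.073 kb from *Ppp6r1*, and *Hspbp1*, which lies 1.5 kb from it, did not pass in any comparison (FDR 0.83 or above).

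*Tob1* lies at chr11:94211454-94215495 on the plus strand. It was at 35.3, 31.98 and 18.9 CPM in *Cryaa*-WT, 15.1, 15.5 and 9.45 CPM in *Cryaa*-R49C-het, and 8.48, 15.5 and 14.1 CPM in *Cryaa*-R49C-homo. Every mutant library was below the lowest WT library, and the mutant groups overlapped. The means were 28.7 ± 8.65, 13.4 ± 3.38 and 12.7 ± 3.72 CPM (SD, n = 3 each), or 2.15-fold and 2.26-fold below WT. The log2 fold changes were -1.11 (SE 0.34) and -1.18 (SE 0.34).

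*Tob1* in the *Cryab* line spanned 41.5, 19.1 and 25.5 CPM in WT, 20.6, 19.1 and 18.1 CPM in het, and 14.4, 10.6 and 28.4 CPM in homo. The WT libraries alone differed 2.17-fold among themselves, and all 3 groups overlapped. Neither contrast passed, with log2 fold changes of -0.57 (SE 0.35, FDR 1.0) and -0.69 (SE 0.35, FDR 0.83; 0.21 to 1.0 over the alternatives). Without *Cryab*-WT replicate 1, the library at 41.5 CPM, the values were -0.21 (SE 0.36) and -0.33 (SE 0.36). The homo value was -0.42 without homo replicate 2 and -1.20 (SE 0.35, FDR 0.21) without homo replicate 3, the library at 28.4 CPM. Its neighbours *B230206L02Rik* and *Wfikkn2* did not pass either (FDR 0.16 or above).

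*Rgs4* was the only gene of the 6 whose homo level was not on the same side of WT as its het level. It lies at chr1:169741477-169747642 on the minus strand. It was at 2.34, 3.68 and 4.10 CPM in *Cryaa*-WT, at 6.02, 10.6 and 9.0 CPM in *Cryaa*-R49C-het and at 2.16, 2.70 and 2.36 CPM in *Cryaa*-R49C-homo. Het lay wholly above both other groups, which overlapped. The means were 3.37 ± 0.92, 8.54 ± 2.32 and 2.41 ± 0.28 CPM (SD, n = 3 each). Het was 2.53-fold above WT and 3.55-fold above homo, and the log2 fold changes against WT were 1.33 (SE 0.30) in het and -0.49 (SE 0.30) in homo.

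*Rgs4* in the *Cryab* line was at 12.2, 23.4 and 12.5 CPM in WT, 17.5, 20.6 and 23.7 CPM in het, and 19.7, 26.7 and 13.6 CPM in homo. The groups overlapped, and log2 fold changes of 0.36 (SE 0.29, FDR 1.0) and 0.32 (SE 0.29, FDR 0.95) did not pass. The FDR lay between 0.49 and 1.0 over the alternatives of both. Without *Cryab*-WT replicate 2, the library at 23.4 CPM, the values were 0.73 and 0.70, and without WT replicate 1 or 3 they were 0.20 and 0.16. The homo value was 0.05 without homo replicate 2 and 0.53 without homo replicate 3. WT lenses at day 14 held 4.75 times the level of WT lenses at day 2, but by library totals the ratio was 1.59 and the libraries overlapped. *Rgs5*, the nearest gene on 1 side at 45.7 kb, was at a log2 fold change of -0.10 (SE 0.38) in *Cryaa*-R49C-het and rose in *Cryaa*-R49C-homo by 1.48 (SE 0.38, FDR 0.018), and *Hsd17b7* on the other side did not pass in any comparison (FDR 0.87 or above).

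**Figure D3:**
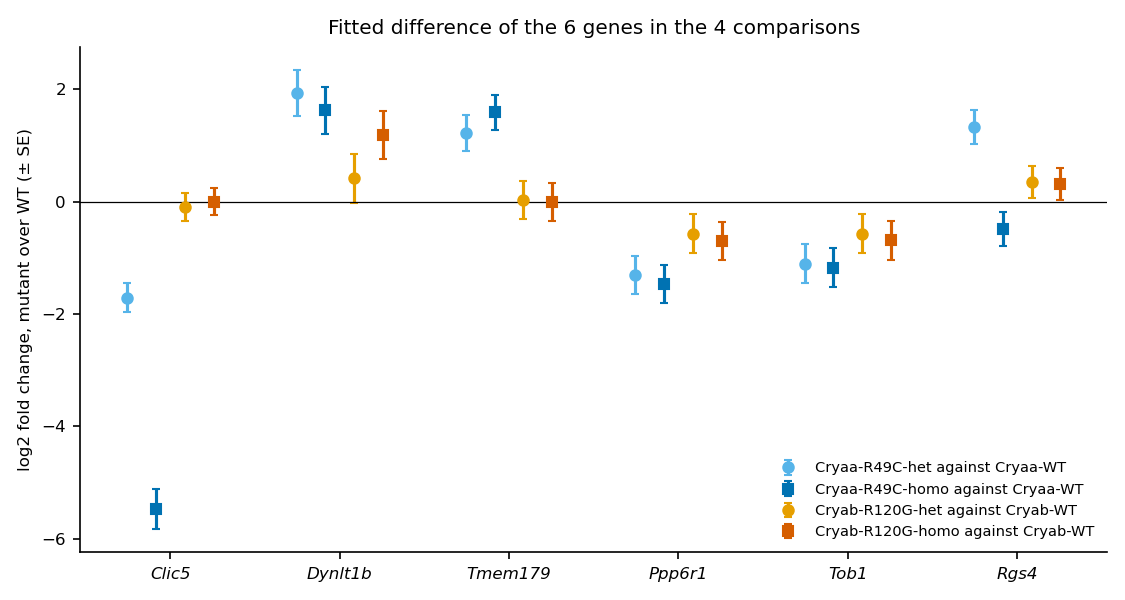
Fitted log2 fold change of each gene against the WT of its own line, with bars of 1 SE, for the 4 comparisons. Both *Cryaa* comparisons share their WT libraries and the het one chose the genes. *Clic5* reaches -5.48 in *Cryaa*-R49C-homo and lies at 0 in the *Cryab* line, and *Rgs4* changes sign between het and homo of the *Cryaa* line.

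Across the 6 genes, all 6 had *Cryaa*-R49C-het libraries that did not overlap WT, 3 above and 3 below, as did 21.9% of all genes tested, 9.57% above and 12.3% below. This count follows from how the genes were chosen. In *Cryaa*-R49C-homo, which shares those WT libraries, 5 of 6 did not overlap WT, all but *Rgs4*, with 2 above and 3 below, against 24.5% of all genes, 11.9% above and 12.6% below. In the *Cryab* line, whose libraries played no part in the choice, the count was 1 of 6 in het against 10.1% of all genes and 1 of 6 in homo against 9.0%. No member passed the edgeR quasi-likelihood test in *Cryab*-R120G-het, where 1 of 13938 genes did (0.00717%), or in *Cryab*-R120G-homo, where 7 did (0.0502%, or 0.416% with the replicate block). At an unadjusted p under 0.05 the members counted 0 in het (3.82% of all genes) and 1 in homo (6.10%), *Dynlt1b*. DESeq2 called 0 of the 6 in both (0.0863% of all genes in het and 0.150% in homo), as did edgeR's likelihood-ratio test (0.330% and 1.84%). The median size of the log2 fold change over the 6 genes was 0.39 in *Cryab*-R120G-het and 0.50 in *Cryab*-R120G-homo, beside 0.23 and 0.26 over all genes.

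Per kilobase of exon, a scale on which different genes can be compared within a library, *Tob1* was at 12.6 ± 3.78 CPM per kb in *Cryaa*-WT, *Ppp6r1* at 1.66 ± 0.35, *Tmem179* at 1.10 ± 0.22, *Rgs4* at 1.09 ± 0.30 and *Clic5* at 0.81 ± 0.15 (SD, n = 3). *Dynlt1b* is left out, since reads from most of its transcript were not counted. In *Cryab*-WT the levels were 12.6 ± 5.04 for *Tob1*, 12.5 ± 0.79 for *Clic5*, 5.18 ± 2.04 for *Rgs4*, 1.77 ± 0.24 for *Ppp6r1* and 1.44 ± 0.091 for *Tmem179*. *Clic5* had the lowest mean of these 5 at day 2 and a mean close to that of *Tob1* at day 14. By library totals *Tob1* was 2.82-fold lower at day 14 than at day 2, *Ppp6r1* 2.69-fold and *Tmem179* 2.18-fold, each without overlap, although the TMM levels of *Tob1* and *Ppp6r1* overlapped and those of *Tmem179* were higher at day 14.

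The members were also set against the share of each library taken by *Gm42418*, because that share separated *Cryaa*-WT from *Cryaa*-R49C-het. The relation was tested over the 9 *Cryab* libraries, which were not used to choose the genes, with exact permutation tests (two-sided, over all orders of 9 libraries) adjusted over the 6 genes. *Ppp6r1* rose with the share (Pearson's r = 0.92, permutation p = 0.00097, adjusted 0.0029, Spearman's rho = 0.92, p = 0.0013, adjusted 0.0039). *Tob1* did so as well (r = 0.87, permutation p = 0.00074, adjusted 0.0029, rho = 0.97, p = 0.00017, adjusted 0.00099). *Rgs4* fell with it (r = -0.89, permutation p = 0.0032, adjusted 0.0064, rho = -0.85, p = 0.0061, adjusted 0.012). *Dynlt1b* passed by Pearson's r (-0.75, permutation p = 0.0087, adjusted 0.013) but not by rank (rho = -0.67, permutation p = 0.059, adjusted 0.088). *Clic5* (r = 0.02, permutation p = 0.95) and *Tmem179* (r = 0.30, permutation p = 0.44) did not pass.

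With *Cryab*-R120G-homo replicates 1 and 2 left out, the 2 whose shares were farthest from the median, r over the other 7 was 0.84 for *Ppp6r1*, 0.73 for *Tob1*, -0.90 for *Rgs4* and -0.56 for *Dynlt1b*. The permutation of all 9 libraries takes no account of genotype or of the replicate number. After the genotype means were removed, r over the 9 libraries was 0.95, 0.86, -0.90 and -0.74. With libraries reordered only within their genotype (216 orders, exact permutation, chosen after seeing the data), the adjusted p was 0.046 for *Ppp6r1*, 0.014 for *Tob1* and 0.014 for *Rgs4*, both at the smallest raw p possible, 0.0046, and 0.19 for *Dynlt1b*, which did not pass. The replicate number was left aside there too. Over all 13938 genes, 5.53% had r of at least 0.8 and 3.54% had r of -0.8 or below, so many other genes followed the share. At a cut of 0.7, which takes in *Dynlt1b*, 9.99% had r of at least 0.7 and 8.46% had r of -0.7 or below. With levels by library totals in place of TMM, an alternative chosen after seeing the data, r was 0.94 for *Ppp6r1*, 0.83 for *Tob1*, -0.88 for *Rgs4* and -0.76 for *Dynlt1b* (permutation adjusted p = 0.00028, 0.0042, 0.0044 and 0.021), beside 1.92% of all genes at 0.8 or above and 9.08% at -0.8 or below. On that scale *Clic5* had r = -0.55 (permutation p = 0.12) and *Tmem179* r = 0.00027 (permutation p = 1.0), so the value near 0 for *Clic5* depended on TMM. In *Cryaa*-R49C-homo, the libraries with shares of 2.53%, 24.5% and 42.6% had *Ppp6r1* at 1.94, 2.99 and 3.95 CPM, *Tob1* at 8.48, 15.5 and 14.1, *Dynlt1b* at 8.37, 3.46 and 4.11 and *Rgs4* at 2.16, 2.70 and 2.36 CPM, in that order. The part of the share in the differences between the *Cryaa* groups was not tested. With the log2 share added to the model as a covariate, an alternative chosen after seeing the data, the log2 fold change in *Cryaa*-R49C-het was -0.98 (SE 0.24) for *Ppp6r1*, -0.80 (SE 0.28) for *Tob1*, 1.21 (SE 0.30) for *Rgs4*, 1.57 (SE 0.33) for *Dynlt1b*, 1.01 (SE 0.27) for *Tmem179* and -1.74 (SE 0.27) for *Clic5*. The genes were chosen on this contrast, so these values are a description.

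**Figure D4:**
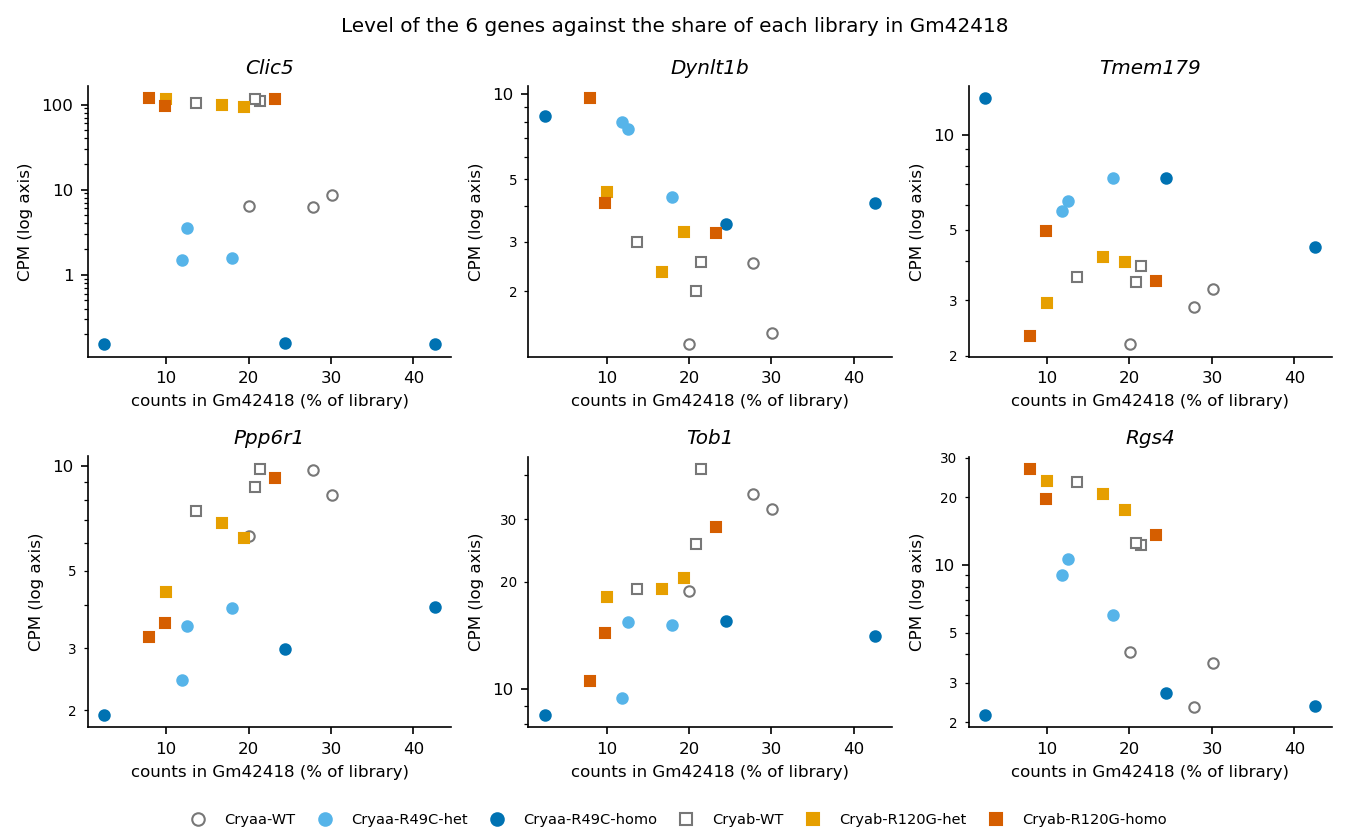
CPM of each gene (log axis) against the percentage of a library's counts in *Gm42418*, for the 18 libraries, with circles for the *Cryaa* line, squares for the *Cryab* line and open symbols for WT. Among the squares, *Ppp6r1* and *Tob1* climb with the share and *Rgs4* declines, while *Clic5* stays level on this TMM scale.

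The profiles of the members over the 18 libraries were also compared with each other and with all genes tested, on log2 CPM. These libraries include those used for the choice, age, line and library composition are shared by all points, and the difference between the lines depends on TMM, so the correlations are a description. Among the members *Ppp6r1* and *Tob1* were the most alike (r = 0.93, n = 18 libraries), followed by *Clic5* and *Rgs4* (r = 0.85), and *Dynlt1b* ran opposite to *Ppp6r1* (r = -0.79) and *Tob1* (r = -0.76). By library totals r was 0.94 for *Ppp6r1* and *Tob1* but 0.44 for *Clic5* and *Rgs4*, and 0.01 and 0.20 for *Dynlt1b* with *Ppp6r1* and *Tob1*. The genes most like each member, named next, were found on the TMM scale only. The 2 genes most like *Clic5* were *Ccdc180* (r = 0.996) and *Pacsin3* (r = 0.993), the latter encoding a membrane-bending protein that binds actin regulators. *Pacsin3* had mean levels of 15.8, 10.02 and 1.95 CPM in WT, het and homo of the *Cryaa* line and 86.5, 80.9 and 84.5 CPM in the *Cryab* line. *Ccdc180* was at 3.65, 2.24 and 0.42 CPM and at 25.2, 23.5 and 22.7 CPM.

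The genes most like *Ppp6r1* were *Dpp8*, a dipeptidyl peptidase (r = 0.94), and *Celsr2*, a cadherin of planar polarity (r = 0.94). Those most like *Tob1* were *Nfat5*, the transcription factor of the response to osmotic stress (r = 0.94), and *Ankrd52*, a scaffold subunit of protein phosphatase 6 (r = 0.94). *Rgs4* was closest to *Tmem178* (r = 0.95) and to *Dnajc19*, a mitochondrial import factor (r = 0.95). *Tmem178* was at 0.32, 0.56 and 0.18 CPM in WT, het and homo of the *Cryaa* line, again highest in het. *Tmem179* was closest to *Aldh9a1*, an aldehyde dehydrogenase (r = 0.89), and *Yars*, the tyrosyl-tRNA synthetase (r = 0.81), and *Dynlt1b* to *Thrsp* (r = 0.80) and *Sdhaf3*, an assembly factor of succinate dehydrogenase (r = 0.79).

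A further 75 genes were listed as relatives or binding partners of the 6, of which 74 were in the count table and 64 passed the filter. In *Cryaa*-R49C-het none of the 64 passed the edgeR quasi-likelihood test (0.00717% of all genes did). Of the 64, 5 had an unadjusted p under 0.05 (5.09% of all genes), and DESeq2 (0.0144%) and the likelihood-ratio test (0.108%) called 0. In *Cryaa*-R49C-homo 6 rose and 3 fell (9 of 64, beside 9.79% of all genes, 4.87% up and 4.91% down). Scaled by library size and not by TMM, which puts the median of all genes in this comparison at 0.41 on the log2 scale, 12 list genes rose and 0 fell, and over all genes 1884 rose and 254 fell against 679 and 685. The count of 9 was 2 with the replicate block and 12 without *Cryaa*-R49C-homo replicate 1. It was 2, 4 and 5 without *Cryaa*-WT replicates 1, 2 and 3, and 5 and 4 without *Cryaa*-R49C-homo replicates 2 and 3. In neither *Cryab* comparison did any pass, with 4 at an unadjusted p under 0.05 in each (3.82% of all genes in het and 6.10% in homo). DESeq2 called 0 in both (0.0863% and 0.150% of all genes) and the likelihood-ratio test 0 and 1 (0.330% and 1.84%). The difference of the homo effect between the lines passed for none of the 64 (2.91% of all genes did, and 10 of the 64 had an unadjusted p under 0.05, beside 15.4% of all genes), so the 9 calls are not shown to differ from the *Cryab* line.

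Of the 11 tested partners of *Clic5*, 2 rose in *Cryaa*-R49C-homo. *Slc9a3r2*, a scaffold that binds ezrin, had a mean of 3.47 ± 0.11 CPM in WT, 3.36 ± 0.60 in het and 6.94 ± 2.58 in homo (SD, n = 3), a log2 fold change of 0.99 (SE 0.28, FDR 0.025) in homo. *Myo6*, the actin motor myosin VI, was at 16.0 ± 2.95, 16.2 ± 2.47 and 26.7 ± 8.68 CPM, a log2 fold change of 0.73 (SE 0.22, FDR 0.035). Of 14 alternatives, 8 called *Slc9a3r2* (FDR up to 0.12) and 7 called *Myo6* (up to 0.22). The other intracellular chloride channel genes tested did not pass. The list's median log2 fold change was 0.52 in *Cryaa*-R49C-homo, beside 0.0047 over all genes, while *Clic5* itself was at -5.48. In *Cryaa*-R49C-het it was -0.09, and *Ezr*, the most abundant member, was at 0.21 (SE 0.21, FDR 0.85) there.

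Of the 13 tested dynein genes, 3 rose in *Cryaa*-R49C-homo. *Dync1li1*, a light intermediate chain, was at 18.7 ± 2.09, 22.5 ± 4.001 and 34.2 ± 11.5 CPM in WT, het and homo (SD, n = 3), at a log2 fold change of 0.87 (SE 0.22, FDR 0.013). *Dynll2*, a light chain, was at 0.98 (SE 0.28, FDR 0.028) and *Dync1i2*, an intermediate chain, at 0.78 (SE 0.23, FDR 0.036). The 3 calls were made in 10, 8 and 7 of the 14 alternatives, with FDR up to 0.088, 0.18 and 0.27. The list's median was 0.18 in het and 0.21 in homo of the *Cryaa* line. The most abundant subunit, *Dynlrb1*, was at 0.18 (SE 0.19, FDR 0.85) in het and 0.20 (SE 0.19, FDR 0.56) in homo.

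Of the 6 other genes of protein phosphatase 6, 2 fell in *Cryaa*-R49C-homo, both of them ankyrin-repeat scaffold subunits. *Ankrd28* was at 5.96 ± 0.40, 3.69 ± 0.81 and 2.90 ± 0.71 CPM in WT, het and homo (SD, n = 3), at a log2 fold change of -1.05 (SE 0.27, FDR 0.014) in homo and -0.69 (SE 0.26, FDR 0.84) in het. *Ankrd52* was at 6.71 ± 1.71, 3.42 ± 0.91 and 3.06 ± 0.97 CPM, with -1.14 (SE 0.32, FDR 0.024) in homo and -0.97 (SE 0.31, FDR 0.84) in het. Their homo calls were made in 12 and 11 of the 14 alternatives (FDR up to 0.13 and 0.14). The catalytic subunit *Ppp6c* was at 0.01 (SE 0.28) in het and 0.15 (SE 0.28) in homo, and the regulatory subunit *Ppp6r3* at -0.21 (SE 0.21) and -0.07 (SE 0.21). The list's median was -0.60 in het and -0.87 in homo of the *Cryaa* line, and -0.04 and -0.25 in the *Cryab* line.

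Among the 15 tested genes of the BTG/TOB family and the CCR4-NOT complex, only *Tob2*, the closest relative of *Tob1*, fell in *Cryaa*-R49C-homo. It was at 6.06 ± 0.79, 4.98 ± 0.78 and 2.81 ± 0.70 CPM in WT, het and homo (SD, n = 3), at a log2 fold change of -1.11 (SE 0.23, FDR 0.0028), called in 13 of the 14 alternatives (FDR up to 0.11). The list's median was -0.21 there. In *Cryaa*-R49C-het the most abundant of the list, *Pabpc1*, the cytoplasmic poly(A)-binding protein, was at -0.64 (SE 0.29, FDR 0.84).

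Among the 19 tested RGS and Gα genes, *Rgs5* was the only 1 to pass, in *Cryaa*-R49C-homo. It was at 23.7 ± 4.92, 22.2 ± 2.94 and 66.2 ± 40.3 CPM in WT, het and homo of the *Cryaa* line (SD, n = 3), and was called in 9 of the 14 alternatives (FDR up to 0.11). *Rgs5* is known as a gene of pericytes. The summed level of 8 vessel and mesenchyme markers, all with counts, was 20.2 to 38.3 CPM in WT, 18.2 to 22.1 in het and 20.9, 63.9 and 71.0 CPM in homo at its lowest, median and highest library, and its part in the *Rgs5* result was not tested. *Gnai2*, the most abundant of the list, was at -0.07 (SE 0.20) in het and 0.05 (SE 0.20) in homo.

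**Figure D5:**
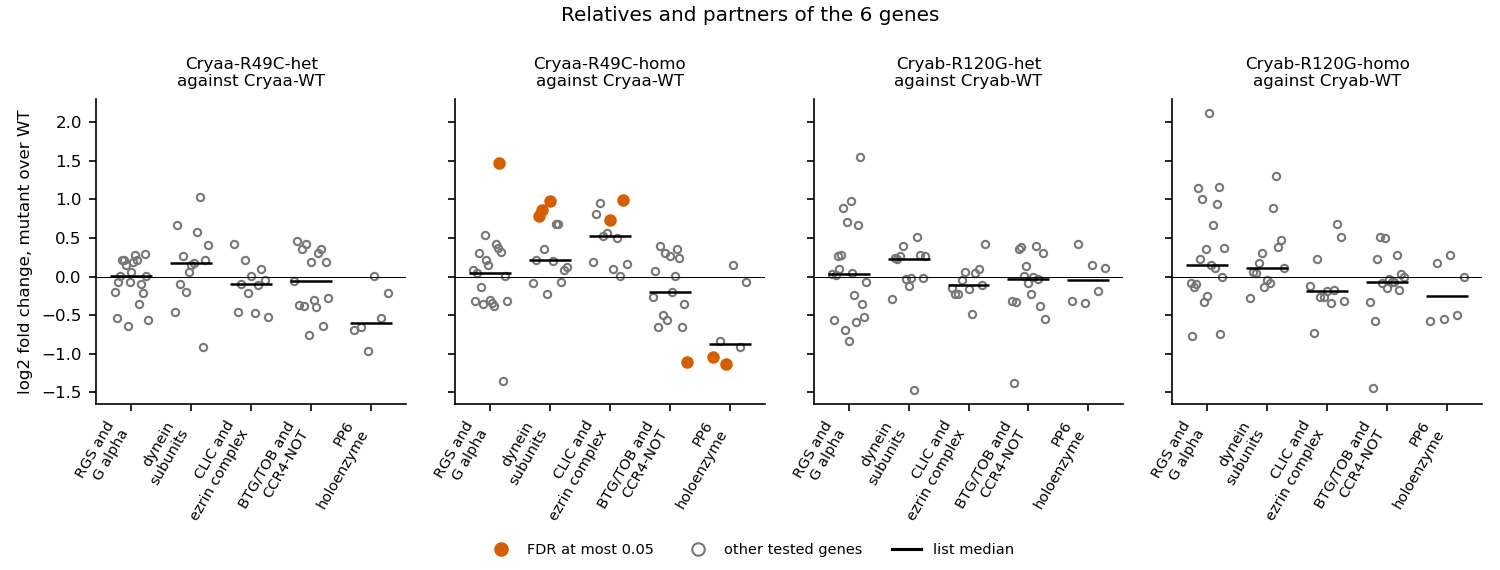
Log2 fold changes of the 64 tested relatives and partners in the 4 comparisons, by list, with the list median as a bar and filled points for genes at an FDR of at most 0.05. The 9 filled points all lie in *Cryaa*-R49C-homo, 6 above 0 and 3 below.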

How the data were processed

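RNA from pooled lenses was sequenced as single 50-base reads of poly-A libraries. The authors aligned reads with STAR 2.0.4b to GRCm38 and counted uniquely aligned, unambiguous reads per Ensembl gene with featureCounts 1.4.5. The deposited count table holds these counts without normalization; the strand setting is not given in the sources used here, so reads from antisense genes cannot be separated. Its 41422 lines were reduced to 40800 identifiers by dropping repeated lines. The deposited CPM, RPKM and log2 CPM tables were left aside.

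Levels are CPM after TMM scaling (edgeR 4.0.16, R 4.3.3), and log2 CPM had a prior count of 2. Genes kept by filterByExpr (minimum count 10; 13938 genes) were fitted in 1 model of 6 groups over 18 libraries and tested with edgeR's robust quasi-likelihood test. FDR is the Benjamini-Hochberg value over all genes of a contrast, with a threshold of 0.05. DESeq2 1.42.0, edgeR's likelihood-ratio test with robust dispersions and other scalings and filters were alternatives. The fits were tested on simulated counts. Promoters came from RefSeq tables on GRCm38.p6 (5 of 6 genes matched), and transcripts, exon lengths and positions from GENCODE vM21, the same assembly.

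The members and lists were chosen with earlier results of these data known. Named genes were the 6 members, *Cryaa*, *Cryab* and the *Dynlt1* copies, at most 3 called genes per list and contrast (otherwise at most 2 abundant ones), the 2 most similar genes per member, and the nearest tested gene on each side of a member. Deviations of same-numbered *Cryab*-WT and *Cryab*-R120G-homo libraries from their group means had correlations across genes of 0.28, 0.18 and 0.16. For *Cryab*-R120G-het and its WT they were 0.35, 0.0082 and 0.13. In the *Cryaa* line they were -0.05, 0.33 and 0.48 for het and 0.04, 0.16 and 0.15 for homo. The sample titles state no pairing. The blocked value, from a fit to all 9 libraries of the line, is given for *Cryab*-R120G-homo where it differs.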

Additional observations from a re-analysis of the deposited data

How the results depend on the processing

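In the *Cryab* line *Dynlt1b*, *Ppp6r1*, *Tob1* and *Rgs4* had 1 sign each under the 14 alternatives run for both contrasts, while *Clic5* and *Tmem179*, close to 0, took both signs. Library size alone in place of TMM put the median over all genes at a log2 fold change of 0.21 to 0.41 and gave 1.49 for *Tmem179* in *Cryaa*-R49C-het and -5.05 for *Clic5* and -0.12 for *Rgs4* in *Cryaa*-R49C-homo. The cause of the changes in counts was not tested.

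Genes called in *Cryaa*-R49C-het numbered 1, against 17 with every counted gene, 15 by the likelihood-ratio test, 2 by DESeq2, 0 with the 9 libraries of the line alone, 0 with the replicate block and 2 with the *Gm42418* share as a covariate, which was chosen after seeing the data, and 0 to 2 with 1 replicate left out. In *Cryaa*-R49C-homo 1364 became 2138 with library size alone, 2887 by the likelihood-ratio test, 3180 with the covariate, and 746 (without *Cryaa*-WT replicate 1) to 3085 (without *Cryaa*-R49C-homo replicate 1). In *Cryab*-R120G-het 1 became 140 with every gene, 46 by the likelihood-ratio test, 12 by DESeq2, 7 with the block, and 0 to 3 with a replicate left out. In *Cryab*-R120G-homo 7 became 302, 257, 20 and 58 under the same settings, and 1 to 13 with a replicate left out, and with every gene 1 member was called, *Dynlt1b*.

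Of the relatives, 9 called in *Cryaa*-R49C-homo became 15 by the likelihood-ratio test, 15 with the covariate, 2 with the block, and 2 to 12 with a replicate left out. With every gene 1 was called in *Cryab*-R120G-het and 2 in *Cryab*-R120G-homo, where the likelihood-ratio test called 1. The replicate block changed no call of a member in the *Cryab* line. Counts of 4 to 7 reads limit *Clic5* in *Cryaa*-R49C-homo.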
